A study of Mus musculus with 6 samples.

Results

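RGS proteins, the regulators of G protein signalling, were examined as a gene family in cultured mouse mesenchymal stem cells. The members were 10 genes, Rgs2, Rgs3, Rgs4, Rgs5, Rgs10, Rgs12, Rgs14, Rgs16, Rgs17 and Rgs19, out of 22349 named genes on the array. They were found by gene symbol, and where a gene had several probe sets the one to be used was chosen by its measured level, as the highest mean over the 6 arrays. The 10 genes are also those of the 21 RGS genes looked up with the highest mean log2 values. The dimmest member on the probe sets used, Rgs14, averaged 4.44, and Rgs11, the brightest RGS gene outside the list, averaged 4.26. For Rgs3 the counts, medians and figures use its brighter probe set, whose assignment is in doubt as described below. The dimmer Rgs3 probe set averaged 4.38. All 10 passed the filter on dim genes, which kept 16762 genes with a mean log2 value of at least 3.32. The family was proposed with earlier results of these data known, so the tests below are not independent evidence that RGS genes respond to density.

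RGS proteins bind active G protein alpha subunits and speed up their hydrolysis of GTP, which shortens the signal of receptors coupled to G proteins. They differ in the alpha subunits they act on, and several are themselves induced by the signals they dampen. Rgs2, Rgs3, Rgs4, Rgs5 and Rgs16 belong to the R4 subfamily, most of whose members are small proteins with little beyond the RGS domain. Rgs10, Rgs12 and Rgs14 form the R12 subfamily, and Rgs17 and Rgs19 belong to the RZ subfamily. In connective tissue cells such regulators set how strongly contractile, migratory and growth signals from these receptors are passed on.

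The cells were mesenchymal cells extracted from mouse bone marrow and grown in a commercial stem cell medium. Dense cultures were seeded with 2500000 cells and sparse cultures with 15000. RNA was collected 1, 2 and 3 days after seeding and hybridised to Affymetrix arrays, 1 array per density and day, which gave 3 dense and 3 sparse arrays. The labels call the samples independent. All sample titles share the same numbered prefix, whose meaning is not given. The strain, the age and the number of animals were not stated in the labels, which list no further treatment for either density. With 1 array per density and day, no p-value rests on replicate cultures. The p-values rest on the spread of the daily differences (density) or on the scatter about a line fitted to the days (slope). For each gene limma moderates this spread with that of all tested genes. Array medians of the log2 values ran from 4.33 to 4.45. All 11 stromal markers looked up were above the filter floor. By limma 6 of them were higher in dense cultures and 1 lower, against 8.26% and 2.9% of all tested genes. Marker levels were summed in linear terms and are given on the log2 scale, so the brightest genes weigh most. The summed level of the stromal markers lay between 12.57 and 12.98 in dense cultures and between 11.85 and 11.98 in sparse cultures. Of 12 macrophage and leukocyte markers 5 were above the floor, the pan-leukocyte marker Ptprc was below it with a mean of 3.17, and their summed level lay between 7.31 and 7.36 in dense cultures and between 7.33 and 7.43 in sparse cultures. Above the floor were also 4 of 5 megakaryocyte markers, of which Ppbp was higher in dense cultures (0.93, adjusted p = 0.0185), 3 of 7 lymphocyte markers and 4 of 7 endothelial markers. In bulk RNA, a change in the share of cells that express a gene and a change of RNA per cell cannot be told apart.

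The promoters of the 4 members on which the results turn are shown for reference, as the 250 bases upstream of the RefSeq transcript start on GRCm38.p6, 5′ to 3′ on the strand of the gene. Rgs2 and Rgs17 are shown because they differed between the densities, and Rgs4 and Rgs16 because their courses over the days differed. Capitals mark TGACG or its complement CGTCA, the 5-base core of the cAMP response element, and TATAAA read on the strand of the gene. TATAAA was added to the search after the sequences were seen.
Rgs16 (chr1:153740103-153740352, plus strand): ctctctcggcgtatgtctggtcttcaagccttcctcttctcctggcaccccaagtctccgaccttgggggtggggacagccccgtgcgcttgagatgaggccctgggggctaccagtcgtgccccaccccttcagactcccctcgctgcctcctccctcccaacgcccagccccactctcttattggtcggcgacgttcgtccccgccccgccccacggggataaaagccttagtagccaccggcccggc
Rgs4 (chr1:169747643-169747892, minus strand): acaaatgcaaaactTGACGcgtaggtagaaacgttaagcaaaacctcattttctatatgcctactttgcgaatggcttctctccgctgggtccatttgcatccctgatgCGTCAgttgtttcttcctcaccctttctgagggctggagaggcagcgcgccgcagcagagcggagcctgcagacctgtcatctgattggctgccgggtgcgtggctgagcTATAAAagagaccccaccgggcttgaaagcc
Rgs2 (chr1:144004150-144004399, minus strand): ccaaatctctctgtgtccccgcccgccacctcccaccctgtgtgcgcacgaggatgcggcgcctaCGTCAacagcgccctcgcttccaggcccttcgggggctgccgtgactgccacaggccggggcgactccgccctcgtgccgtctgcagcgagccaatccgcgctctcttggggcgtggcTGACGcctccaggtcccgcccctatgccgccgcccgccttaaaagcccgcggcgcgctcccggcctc
Rgs17 (chr10:5922401-5922650, minus strand): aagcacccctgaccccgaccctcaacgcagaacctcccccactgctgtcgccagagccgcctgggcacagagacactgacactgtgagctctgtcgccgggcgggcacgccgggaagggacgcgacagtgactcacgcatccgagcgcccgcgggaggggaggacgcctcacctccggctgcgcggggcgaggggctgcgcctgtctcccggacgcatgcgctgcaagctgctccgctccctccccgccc

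The Rgs2 window held the core at positions −185 and −67 (first base, counted from the start), and the Rgs4 window at −236 and −141. Rgs4 also had TATAAA at −31. The Rgs16 and Rgs17 windows held neither. Over all 32851 promoter windows of this length in the RefSeq table, 17.8% held the core on either strand and 7.59% held TATAAA on the strand of the gene. RefSeq gave 13 windows for 9 of the members, with Rgs14 not among them. Of these windows 3 held the core, those of Rgs2 and Rgs4 and 1 of the 2 windows of Rgs12, and none held the full element TGACGTCA, which 1.55% of all windows held. A match in a window is a description of the letters and shows no binding.

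**Figure D1:**
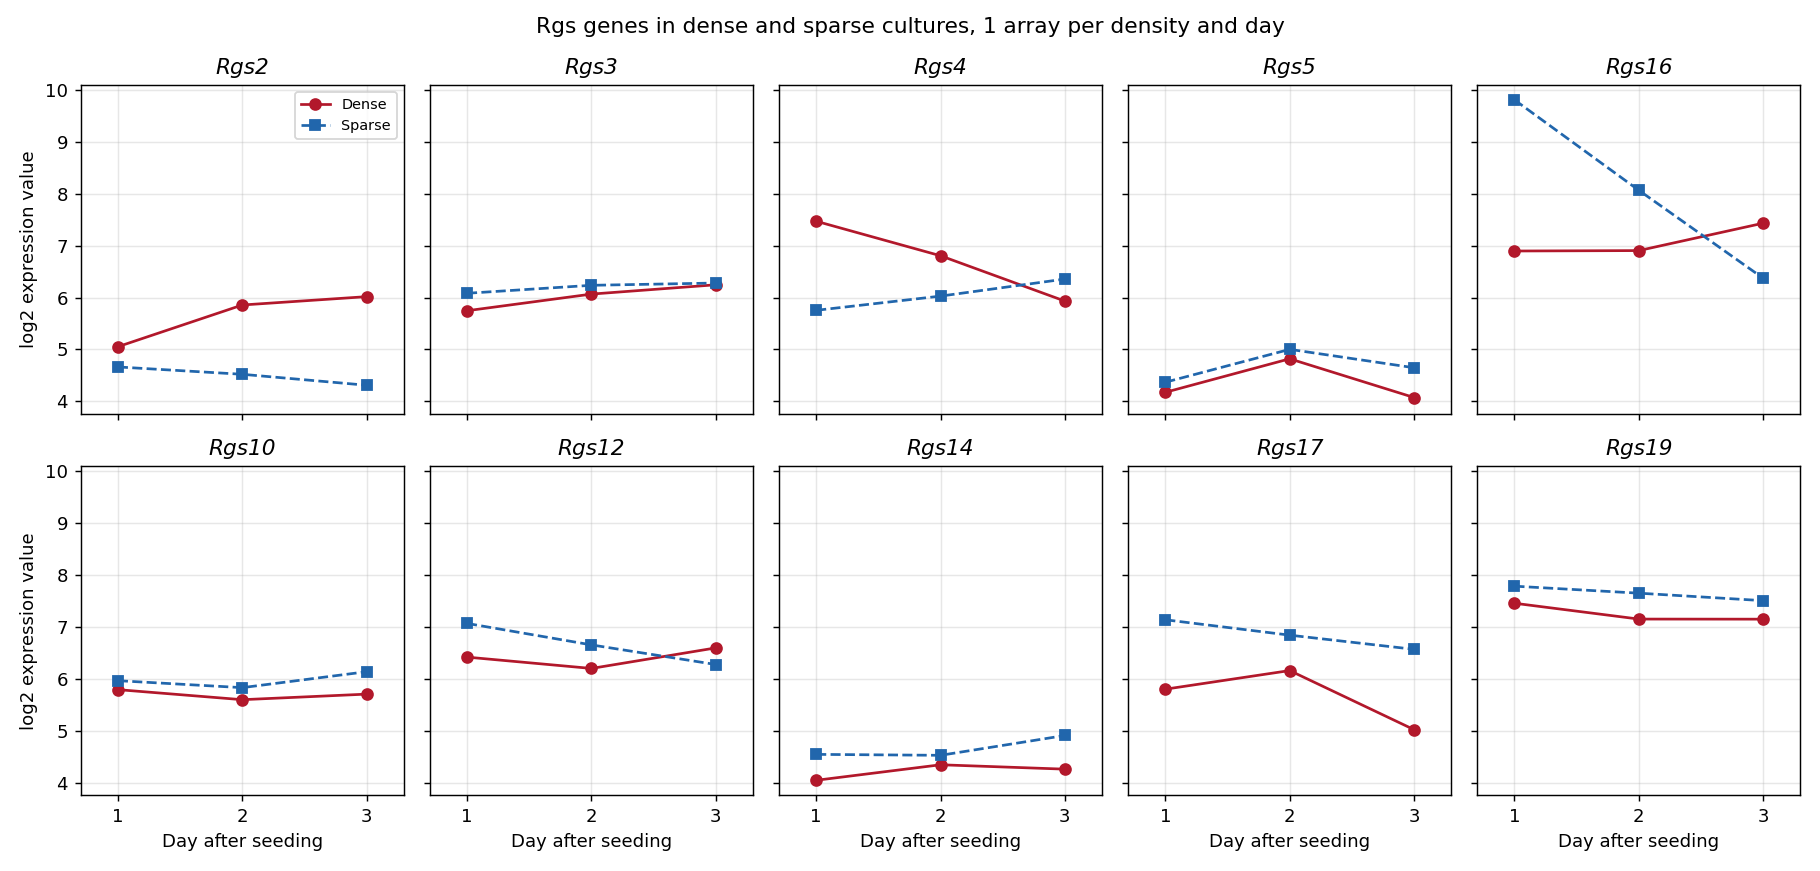
Log2 expression values of the 10 Rgs genes (vertical axis) on days 1, 2 and 3 after seeding (horizontal axis), with dense arrays as red circles on solid lines and sparse arrays as blue squares on dashed lines, 1 array per point. The Rgs16 lines cross between days 2 and 3 with a sparse value of 6.37 on day 3, and the Rgs4 lines cross there with a dense value of 5.93 on day 3, while the Rgs2 lines diverge and the Rgs17 lines stay apart.

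Rgs16 had the difference in course with the smallest p of all tested genes. It encodes an R4 regulator of Gi and Gq signalling whose gene is known to be induced by mitogens and inflammatory stimuli. Its log2 values on days 1, 2 and 3 were 6.90, 6.91 and 7.43 in dense cultures, against 9.81, 8.07 and 6.37 in sparse cultures. The sparse arrays thus held both the highest and the lowest value, and the dense arrays lay between them. Between days 1 and 3 the sparse value dropped by 3.44, a 10.9-fold difference and the third largest drop among the 16762 tested genes, while the dense value on day 3 was 1.45-fold that on day 1. The slope over the days was 0.27 log2 units per day in dense cultures and −1.72 in sparse cultures. The slope difference, dense minus sparse, was 1.99 ± 0.15 log2 units per day (SE, 3 arrays per density) with a limma adjusted p of 0.0146, and its unadjusted p of 2.22e-06 was the smallest of all tested genes. Expressed by day, dense minus sparse was −2.91 on day 1, −1.16 on day 2 and 1.06 on day 3. In linear terms Rgs16 was 7.54-fold and 2.24-fold lower in dense cultures on days 1 and 2 and 2.09-fold higher on day 3.

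Averaged over the days, the density difference of Rgs16 was −1.01 ± 0.69 and did not pass the test (adjusted p = 0.339). Without the day 1 arrays it was −0.05 (adjusted p = 0.955) and without the day 3 arrays it was −2.04 and passed (adjusted p = 0.00704).

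Rgs4 showed the opposite course. It is an R4 regulator of Gi and Gq signalling, short-lived as a protein. Its log2 values were 7.47, 6.81 and 5.93 on days 1, 2 and 3 in dense cultures, against 5.75, 6.03 and 6.36 in sparse cultures. Dense values were lower on each later day and sparse values higher, so that dense lay above sparse on days 1 and 2 and below it on day 3, and the groups overlapped. The slope was −0.77 log2 units per day in dense and 0.30 in sparse cultures. The difference of −1.07 ± 0.13 passed narrowly (limma adjusted p = 0.0458). It did not pass when the filter on dim genes was dropped (adjusted p = 0.0545). By day, dense over sparse was 3.29-fold on day 1, 1.71-fold on day 2 and 0.745-fold on day 3. The averaged density difference of 0.69 ± 0.38 did not pass (adjusted p = 0.253). Without the day 1 arrays it was 0.18 (adjusted p = 0.710), and without the day 3 arrays it was 1.25 and passed (adjusted p = 0.00957).

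Of 10 markers of mural cells, the pericytes and smooth muscle cells of vessels, all were above the floor and 2 passed the slope test. The adhesion molecule Mcam had 7.47, 6.73 and 5.70 in dense and 5.72, 7.48 and 8.51 in sparse cultures on days 1 to 3 (slope difference −2.28, adjusted p = 0.0146). Calponin, Cnn1, had 9.85, 9.62 and 9.01 in dense and 8.02, 8.84 and 9.40 in sparse cultures (slope difference −1.11, adjusted p = 0.0483). The slope differences of these 2 have the sign of that of Rgs4. The other 8 did not pass, with slope differences of −0.70 for Tagln, −0.63 for Acta2, −0.18 for Myh11, −0.08 for Abcc9, −0.01 for Cspg4, 0.13 for Notch3, 0.17 for Des and 0.21 for Kcnj8. The summed level of the 10 markers lay between 12.65 and 12.85 in dense cultures and between 11.8 and 13.0 in sparse cultures. This sum is mostly Acta2, the brightest of them. Acta2 had 12.26, 12.25 and 12.24 in dense and 11.21, 12.10 and 12.45 in sparse cultures on days 1 to 3. By limma's density test 0 of the 10 markers passed. Their part in the Rgs4 result was not tested.

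Across the family, 1 member had a positive and 1 a negative slope difference past the test, Rgs16 and Rgs4, against 0.0776% and 0.113% of all tested genes. The other 8 did not pass, with slope differences from −0.19 for Rgs5 to 0.66 for Rgs2. The members' median slope difference was −0.04, against 0.03 over all tested genes. A range of at least 1 log2 unit over the 3 days was seen for 2 members in dense cultures, Rgs4 and Rgs17, where 6.1% of tested genes had one, and for 1 in sparse cultures, Rgs16, where 2.33% had one.

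**Figure D2:**
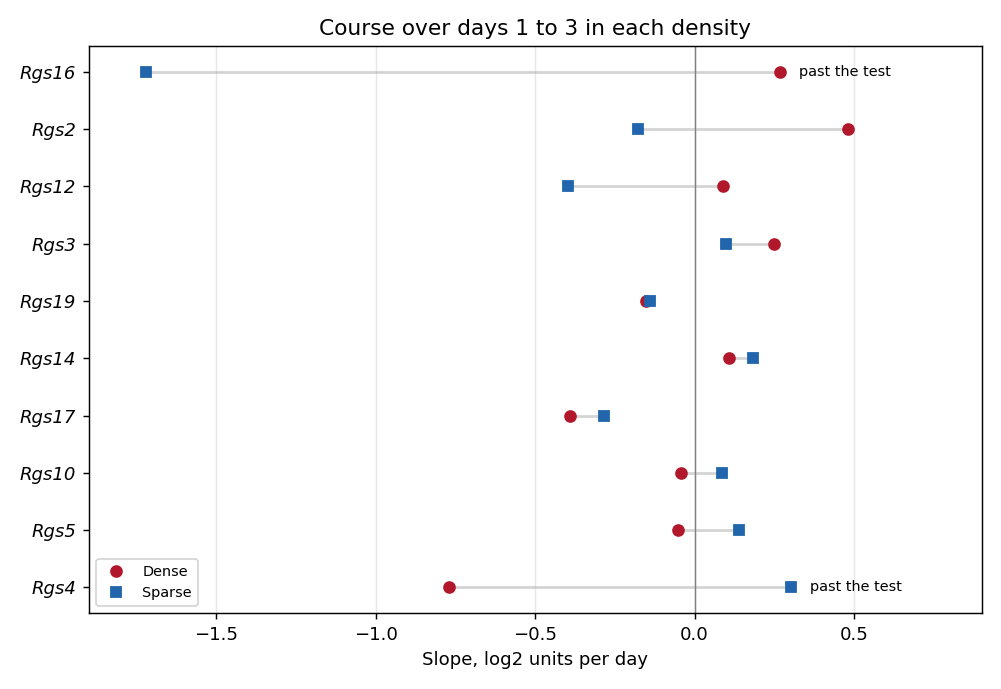
Slope of the log2 value over days 1 to 3 (horizontal axis, log2 units per day) for each Rgs gene, in dense cultures (red circles) and sparse cultures (blue squares), with the 2 genes past the limma slope test marked. Rgs16 lies at 0.27 in dense and −1.72 in sparse, and Rgs4 at −0.77 in dense and 0.30 in sparse.

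Rgs2 was the member that was higher in dense cultures throughout. It encodes an R4 regulator with a preference for Gq, known to dampen contractile signals in vessels. Its log2 values were 5.05, 5.86 and 6.02 in dense cultures on days 1 to 3, against 4.66, 4.52 and 4.31 in sparse cultures. Every dense array lay above every sparse array and the gap widened with each day, with dense over sparse at 1.31-fold, 2.53-fold and 3.27-fold. Dense cultures averaged 5.64 ± 0.52 and sparse cultures 4.50 ± 0.18 (SD, n = 3 each, over days). The density difference was 1.15 ± 0.26 (SE), a 2.21-fold rise with a limma adjusted p of 0.0475. This call is at the edge of the threshold. It was lost with no filter on dim genes (adjusted p = 0.0565), when each probe set was tested separately (0.0574), with quantile normalization applied again (0.0520) and without the day 2 arrays (0.298). In the fit without the day 2 arrays 0 of all tested genes passed. The slopes of 0.48 in dense and −0.18 log2 units per day in sparse cultures differed by 0.66 ± 0.16, which did not pass (adjusted p = 0.114). In the authors' deposited table Rgs2 had a fold change of 2.21 and an unadjusted p of 0.0222.

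Rgs17 was lower in dense cultures throughout. It encodes an RZ regulator that acts on Gi and Gz. Its log2 values were 5.80, 6.16 and 5.02 in dense cultures on days 1 to 3, against 7.14, 6.84 and 6.57 in sparse cultures. Every dense array lay below every sparse array, with the smallest gap on day 2. Dense cultures averaged 5.66 ± 0.58 and sparse cultures 6.85 ± 0.29 (SD, n = 3 each, over days). The density difference was −1.19 ± 0.19 (SE), 2.28-fold lower in dense, with a limma adjusted p of 0.0234. By day, the dense value was 2.53-fold, 1.61-fold and 2.93-fold lower. Without the day 2 arrays the estimate was −1.44 and did not pass (adjusted p = 0.117), in a fit where 0 of all tested genes passed. The slopes of −0.39 in dense and −0.28 in sparse cultures differed by −0.11 and did not pass (adjusted p = 0.891). The authors' deposited table gave a signed fold of −2.28 and an unadjusted p of 0.0336.

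**Figure D3:**
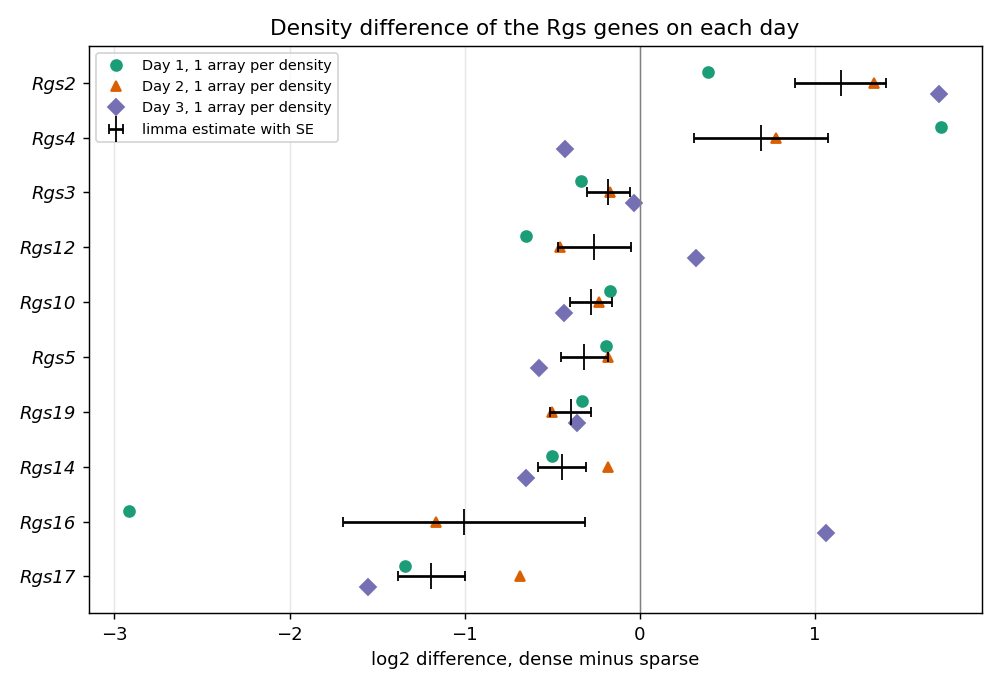
Log2 difference of dense minus sparse (horizontal axis) for each Rgs gene, with day 1 as green circles, day 2 as orange triangles and day 3 as violet diamonds, 1 array per density each, and the limma estimate with its SE in black. Rgs2 lies right of 0 and Rgs17 left of 0 on each day, while Rgs4 and Rgs16 have days on both sides.

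The second RZ member, Rgs19, known as GAIP for its binding to the Gi3 alpha subunit, had 7.46, 7.15 and 7.15 in dense cultures, against 7.79, 7.65 and 7.51 in sparse cultures. All dense values lay below all sparse values by a small margin. Its difference of −0.40 ± 0.12 did not pass (adjusted p = 0.0790), except with quantile normalization applied again (−0.51, adjusted p = 0.0499). The authors' deposited table gave it a signed fold of −1.32 with an unadjusted p of 0.0384.

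The R12 members passed neither limma test. Rgs14, a regulator with Ras-binding and GoLoco motifs beside its RGS domain, had 4.04, 4.34 and 4.26 in dense cultures, against 4.54, 4.53 and 4.91 in sparse cultures. Its difference of −0.44 ± 0.14 did not pass (adjusted p = 0.0894), and its mean was the lowest of the members on the probe sets used. The authors' deposited table gave Rgs14 a signed fold of −1.36 with an unadjusted p of 0.0442. Rgs10, a small R12 protein without these motifs, had 5.79, 5.60 and 5.71 in dense and 5.96, 5.83 and 6.14 in sparse cultures. All dense values of both genes lay below all sparse values, and the Rgs10 difference was −0.28 ± 0.12 (adjusted p = 0.168). Rgs12, the largest R12 protein, had 6.42, 6.20 and 6.60 in dense and 7.07, 6.65 and 6.28 in sparse cultures. Its sparse values were lower on each later day, the groups overlapped, and neither its density difference of −0.26 ± 0.21 (adjusted p = 0.402) nor its slope difference of 0.49 ± 0.15 (adjusted p = 0.192) passed.

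The remaining R4 members, Rgs5 and Rgs3, passed neither limma test. Rgs5, a regulator known as a marker of pericytes, had 4.17, 4.82 and 4.07 in dense cultures, against 4.37, 5.001 and 4.65 in sparse cultures. Both densities were highest on day 2 and the groups overlapped (difference −0.32 ± 0.14, adjusted p = 0.163). Its dimmer probe set, with 3.12, 3.90 and 3.11 in dense and 2.98, 3.68 and 3.72 in sparse cultures, gave a difference of −0.09 (adjusted p = 0.775 when each probe set was tested separately). Rgs3, an R4 regulator with longer isoforms, had 5.75, 6.07 and 6.25 in dense and 6.08, 6.24 and 6.28 in sparse cultures on its brighter probe set (difference −0.18 ± 0.12, adjusted p = 0.338). The assignment of this probe set to Rgs3 is in doubt. Of the 20 probe sets nearest to it in identifier whose symbols RefSeq places, 20 belong to genes on chromosome X, whereas Rgs3 lies on chromosome 4. For the dimmer Rgs3 probe set 20 of 20 such neighbours lie on chromosome 4. Among the other members, the probe set of Rgs17, on chromosome 10, had 7 of 20 neighbours there and 13 on chromosome 1. That of Rgs19 had 9 of 20 on its own chromosome 2. Both had neighbours on the chromosome of the gene, where the brighter Rgs3 probe set had 0 of 20. The probe sets of the remaining members had between 17 and 20 of 20 on the chromosome of the gene. The dimmer Rgs3 probe set had 4.22, 4.31 and 4.36 in dense and 4.46, 4.55 and 4.38 in sparse cultures, a difference of −0.17 (adjusted p = 0.358 when each probe set was tested separately).

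In all, 1 member was higher and 1 lower in dense cultures by limma, against 8.26% and 2.9% of tested genes. Estimates were above 0 for 2 members and below 0 for 8, with a median of −0.30, against −0.05 over all tested genes. Dense arrays all lay above sparse arrays for 1 member, where 20.9% of tested genes were so ordered, and all below for 4, where 19% were. The other 5 overlapped. On single days, without a test, dense was at least 2-fold higher for 1, 1 and 2 members on days 1, 2 and 3, against 3.29%, 5.89% and 6.4% of tested genes. It was at least 2-fold lower for 2, 1 and 1 members, against 1.08%, 1.29% and 2.94%. On day 1 these were Rgs4 (higher) and Rgs16 and Rgs17 (lower), on day 2 Rgs2 (higher) and Rgs16 (lower), and on day 3 Rgs2 and Rgs16 (higher) and Rgs17 (lower).

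**Figure D4:**
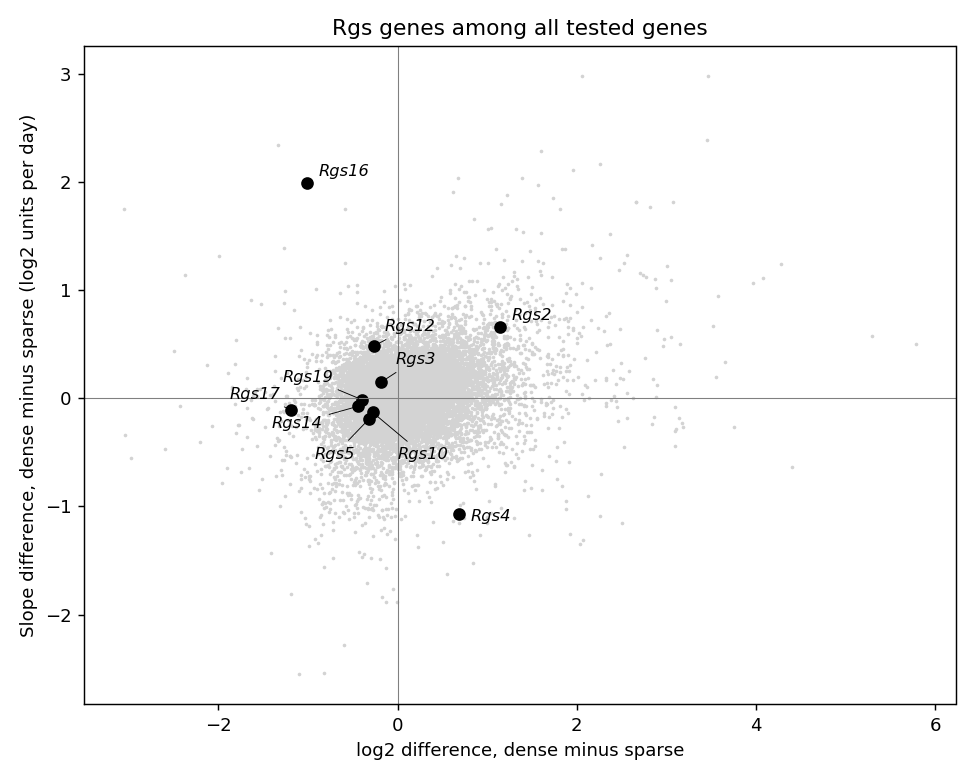
Each grey point is 1 of the 16762 tested genes, with its log2 difference of dense minus sparse averaged over the days (horizontal axis) and its slope difference of dense minus sparse in log2 units per day (vertical axis), and the 10 Rgs genes are labelled in black. Rgs16 (−1.01, 1.99) and Rgs4 (0.69, −1.07) lie away from the bulk in opposite directions, Rgs2 (1.15, 0.66) and Rgs17 (−1.19, −0.11) to its sides, and the other 6 lie within it.

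The genes with profiles most like those of the members were found by the root mean square distance between log2 values over the 6 arrays, after each gene was centred on its mean. Nearest to Rgs2 were Lgmn, a lysosomal protease gene, at a distance of 0.07 log2 units, Phkb at 0.08 and Bdh2 at 0.10. Nearest to Rgs17 were the histone gene Hist2h2bb at 0.09, the chloride channel gene Ano1 at 0.14 and the histone gene Hist1h2bh at 0.15. The same search for Rgs4 and Rgs16 was added after their values were seen. Nearest to Rgs4 were the CDK inhibitor genes Cdkn2c at 0.06 and Cdkn2d at 0.15, and Adm, the gene of the vasodilator adrenomedullin, at 0.18. Cdkn2c had 7.71, 7.21 and 6.34 in dense and 6.08, 6.41 and 6.69 in sparse cultures. Rgs16 had no neighbour as close. The distance is not scaled to a gene's range, and Rgs16 ranged over 3.44 log2 units in sparse cultures. Ramp3, a partner of receptors for adrenomedullin and related peptides, was nearest at 0.35, followed by the CDK inhibitor gene Cdkn1a at 0.37 and Traf1 at 0.48. Ramp3 had 4.96, 4.53 and 4.86 in dense and 7.71, 5.60 and 4.83 in sparse cultures.

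The other parts of the pathway were read from lists of its genes, whose counts stand beside the 8.26% of all tested genes called higher and the 2.9% called lower. Of 11 further RGS genes 3 were above the floor, Rgs8, Rgs9 and Rgs11, and 0 of these passed limma's test at an adjusted p under 0.05. Rgs8 had a difference of −0.38 ± 0.13 (adjusted p = 0.114) and Rgs11 one of −0.26 ± 0.15 (adjusted p = 0.254). Among 10 tested genes of other proteins with an RGS homology domain, 2 were higher and 1 lower. The sorting nexin Snx13 (0.86 ± 0.17, adjusted p = 0.0345) and the receptor kinase Grk5 (0.88 ± 0.16, adjusted p = 0.0314) rose in dense cultures, and the receptor kinase Adrbk1, also called GRK2, fell (−0.54 ± 0.11, adjusted p = 0.0411). Among 15 tested partners and turnover factors of RGS proteins 1 was higher, Gnb5, a beta subunit that pairs with the R7 subfamily (0.63 ± 0.11, adjusted p = 0.0301). The arginyltransferase Ate1, which marks Rgs4, Rgs5 and Rgs16 proteins for degradation, had a difference of 0.07 (adjusted p = 0.698), and is named after its value was seen.

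Of 13 tested G protein alpha subunits 1 was higher, Gnao1 with 0.85 ± 0.19 (adjusted p = 0.0465) and 6.19, 6.74 and 6.19 in dense against 5.64, 5.37 and 5.55 in sparse cultures. Of 14 beta and gamma subunits 1 was higher, Gng12 (0.56 ± 0.12, adjusted p = 0.0384). Neither arrestin passed, with Arrb1 at 0.14 and Arrb2 at −0.38. Of 22 tested effectors 3 were higher and 1 lower, against 8.26% and 2.9% of all tested genes. The phospholipase C genes Plcb1 (1.45 ± 0.15, adjusted p = 0.00957) and Plcb4 (0.61 ± 0.12, adjusted p = 0.0383) and the adenylyl cyclase gene Adcy2 (1.07 ± 0.21, adjusted p = 0.0344) rose in dense cultures. The IP3 receptor gene Itpr3 fell (−0.80 ± 0.15, adjusted p = 0.0305). Their median difference was 0.02.

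In dense cultures 5 of 37 tested receptor genes had higher and 3 had lower values past the test, against 8.26% and 2.9% of tested genes. The median difference of the receptor genes was 0.08, against −0.05 over all tested genes. The prostaglandin F receptor gene Ptgfr had 6.07, 7.15 and 7.25 in dense against 3.86, 3.66 and 4.08 in sparse cultures, a difference of 2.96 ± 0.25 (adjusted p = 0.00721). The lysophosphatidic acid receptor gene Lpar4 had 6.56, 7.25 and 8.95 in dense against 5.11, 5.12 and 5.11 in sparse cultures (2.47 ± 0.43, adjusted p = 0.0281). The endothelin receptor gene Ednra rose by 1.77 ± 0.18 (adjusted p = 0.00909) and the sphingosine 1-phosphate receptor gene S1pr1 by 1.75 ± 0.22 (adjusted p = 0.0136). Further calls, named after their values were seen, included Bdkrb1 (1.20), Htr2a (−1.11) and S1pr2 (−0.58). Whether the receptor and RGS differences are related was not tested.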

How the data were processed

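Expression had been measured on 6 Affymetrix arrays, 3 dense and 3 sparse, with 1 array per density and day. The log2 values of 35556 probe sets were used as deposited by the authors, made with RMA and Partek per the submitters' processing notes, which give no versions. No source used here states which array model, background correction or annotation was used. The authors' deposited table, per the file headers, also gives gene symbols, a p-value and a signed fold change of dense against sparse. Its 6 columns of other per-sample values were not used here. Precision is limited by how few arrays there are.

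The probe set with the highest mean was taken per symbol, and genes with a mean at or above the 25th percentile of named genes were tested. The tests used limma 3.58.1 under R 4.3.3 (2-sided lmFit and eBayes, Benjamini-Hochberg over all tested genes, adjusted p under 0.05). Density was fitted with the day as a factor, and the slope difference as density times day, with 2 residual degrees of freedom each. The eBayes step adds prior degrees of freedom estimated from all tested genes, so each p-value also draws on the spread of other genes. Scripts were tested on simulated data. The labels give the day, which pairs the arrays. After subtraction of the density means, same-day arrays correlated across genes at 0.127, 0.0750 and 0.0674, and different-day arrays at −0.150 to 0.109. The members and gene lists were chosen with earlier results of these data known. The genes named from each list are up to 4 past the density test with the largest difference, or up to 2 where none passed, and other genes are said to be chosen after their values were seen. Values were also tested without or with a stricter filter, with other probe set rules, scalings and eBayes settings, without the day and without each day. Promoters came from RefSeq (GRCm38.p6). 1 gene of the lists is counted but not reported here by name.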

Additional observations from a re-analysis of the deposited data

Results flagged for a closer look

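Rgs16 and Rgs4 are singled out because their course over the days differed between the densities by the test of the difference itself. The Rgs16 slope difference, dense minus sparse, was 1.99 log2 units per day, from 0.27 per day in dense and −1.72 per day in sparse cultures. The Rgs4 slope difference was −1.07 log2 units per day, from −0.77 per day in dense and 0.30 per day in sparse cultures. Each slope rests on 3 arrays, and no replicate of any day was measured.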

How the results depend on the processing

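The 10 members' density estimates kept their direction in all 108 values under 11 alternatives, and 100 stayed on the same side of the threshold. Many of these values could not differ from the main estimate. Changes of the filter, the separate test of each probe set, the missing block and the eBayes setting alter only the p-value. The mean of all probe sets can move only Rgs3 and Rgs5. For the other members, only the scalings and the omission of a day could change the direction. Estimates of Rgs2 ran from 0.86 to 1.52 (adjusted p from 0.0124 to 0.298), those of Rgs17 from −1.44 to −1.01 (adjusted p from 0.0120 to 0.117), those of Rgs4 from 0.18 to 1.25 and those of Rgs16 from −2.04 to −0.05. The count of members higher in dense cultures was 1. It was 0 with no filter on dim genes, when each probe set was tested separately and with quantile normalization applied again. In these settings 6, 4 and 7 members had an unadjusted limma p under 0.05 in either direction. The count of members lower was 1, and 2 with quantile normalization again. Leaving out both arrays of a day gave 0 to 2 members higher and 0 to 2 lower, 0 to 1717 genes higher and 0 to 805 lower. The zeros are those of limma without day 2 (3 members and 2531 genes at an unadjusted p under 0.05 in either direction). With the day as a block, leaving out 1 array gives the same estimate as leaving out both arrays of its day. Quantile normalization again called 816 genes lower, against 486, so that 57.1% of calls were higher, against 74.0%. With no replicate block, 1702 genes were higher and 516 lower, and the members' calls did not change.

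All 40 slope estimates under 4 alternatives kept their direction, and 39 their side of the threshold. The filter and the eBayes setting cannot change a slope estimate, and the mean of all probe sets can do so only for Rgs3 and Rgs5. For Rgs16 and Rgs4 only quantile normalization again could, with slope differences of 1.97 and −1.08. Adjusted p-values ran from 0.00767 to 0.0217 for Rgs16 and from 0.0406 to 0.0545 for Rgs4. With no filter, 3 genes had a positive and 2 a negative slope difference, and 0 members a negative one (4 members at an unadjusted p under 0.05 in either direction), against 13 and 19 genes as reported. With an intensity trend and robust eBayes the counts were 31 and 49. No day can be left out of the slope fit, since 4 arrays leave no residual degrees of freedom. The stricter filter left out Rgs5 and Rgs14. How far signals lay above background is unknown.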

Other observations

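Rgs4 and Rgs5 are neighbours on chromosome 1 with 0 other protein-coding gene starts between them in RefSeq, and so are Rgs8 and Rgs16. The slope difference, dense minus sparse, was −1.07 log2 units per day for Rgs4 and −0.19 for Rgs5, and 1.99 for Rgs16 and −0.00 for Rgs8, whose mean log2 value was 3.69. The difference between neighbours was not tested.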
